A study of Drosophila melanogaster with 23 samples.

Results

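The nuclear-encoded respiratory chain genes described here are the 80 protein-coding genes on nuclear chromosomes whose symbols start with ND-, UQCR-, COX or ATPsyn, out of 13922 protein-coding genes on arms X, 2L, 2R, 3L, 3R and 4. The 3 mitochondrially encoded COX genes were left out. By prefix, 40 genes belong to complex I, 9 to complex III, 16 to complex IV and 15 to complex V. A symbol ending in L, with or without a digit, marks a copy named after another subunit gene (ND-MNLL, which is named after amino acids, was not counted as one). There were 21 such duplicates, and the other 59 genes are called canonical. The prefixes miss some subunits, of which 7 were followed as a list of their own.

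Binding was mapped in chromatin of whole wild-type Drosophila melanogaster embryos (strain Oregon-R) 2 to 3 h old. Eggs laid over 1 h were kept for 2 h more at 25 °C, and fixation was in 1.8% formaldehyde for 15 min. ChIP-nexus, in which an exonuclease trims the precipitated fragments, was done in 3 libraries for each of 6 transcription factors, which are Zelda (Zld), GAGA factor (GAF), Bicoid (Bcd), Caudal (Cad), Dorsal (Dl) and Twist (Twi). Each of 2 histone marks, H3K27ac and H3K4me1, was mapped by ChIP-seq in 2 libraries. All groups share this genotype and age, so the comparisons are between antibodies and between genes, and a whole cell extract input library was left unused and not analysed here.

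Complex I takes electrons from NADH, complex III passes them from quinol to cytochrome c, complex IV passes them on to oxygen, and complex V, the ATP synthase, uses the resulting proton gradient. Their subunits are housekeeping proteins, made in most cells and supplied to the egg by the mother, whereas many duplicated copies in Drosophila are known for expression biased to the testis. Zld and GAF open chromatin in the early embryo, Dl and Twi pattern the dorsoventral axis, Bcd and Cad the anteroposterior one, H3K27ac marks active promoters and enhancers, and H3K4me1 is best known from enhancers.

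The lists held 30281 to 60625 intervals per ChIP-nexus library, 14975 and 14191 for H3K27ac, and 13403 and 6546 for H3K4me1. They give no read counts, so the depth is unknown. Intervals were ranked within each library by the authors' −log10 p, with rank 1 the strongest, and the fold and p of an interval are the authors' values. A gene was taken as bound or marked in a library when the summit of an interval lay within 1 kb of the gene, and as bound by a group when that held in every library of the group. With lists this long the criterion is loose, so binding was also counted over the 5000 strongest intervals of each ChIP-nexus library, called strong here.

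The 80 genes are short and closely packed. Their median length was 1091.5 bp, against 2163 bp for all genes, and 65 of them measured at most 2 kb. Shares are therefore also given for the 6519 genes of at most 2 kb. Another protein-coding gene lay within 1 kb of 71 of the 80, and 40 overlapped one, so an interval near a respiratory chain gene often lay near a neighbour too. ND-15, an accessory subunit of complex I, stood apart with an annotated span of 41305 bp that overlaps 11 other genes.

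Canonical subunit genes nearly all carried H3K27ac, and most duplicates did not. An H3K27ac summit lay within 1 kb of 57 of 59 canonical genes in both libraries, but of 6 of 21 duplicates. The sum, 63 of 80 genes (78.8%), stands against 55.2% of all genes and 43.3% of genes of at most 2 kb. Each of the H3K27ac libraries gave the same counts of 57 and 6. By complex, the canonical genes marked were 32 of 34 in complex I, 6 of 6 in complex III, 8 of 8 in complex IV and 11 of 11 in complex V, and the marked duplicates were 1 of 6, 0 of 3, 4 of 8 and 1 of 4 in the same order of complexes. The 7 core subunits of complex I, which carry its flavin, iron-sulfur clusters and quinone site and are conserved from bacteria, were all marked.

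The 2 canonical genes without a nearby summit, ND-B17.2 and ND-B14, both accessory subunits of complex I, were singled out after their values were seen. Both lay entirely inside H3K27ac intervals in both libraries, 100% of their length, with the summit of the interval farther than 1 kb away. Counting any base of an interval within 1 kb, 59 of 59 canonical genes and 7 of 21 duplicates were marked.

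Coverage of the gene itself, which does not use the summit or the window, gave the same split. Canonical genes had a median of 62.8% of their length inside H3K27ac intervals in replicate 1 and 62.6% in replicate 2. Duplicates had medians of 0 in both libraries, against 2.62% and 2.2% for all genes and 0 for genes of at most 2 kb. At least 1 base was covered in both libraries in 58 of 59 canonical genes and 4 of 21 duplicates, against 50.4% of all genes and 38.3% of those of at most 2 kb. The canonical exception was ND-B8, an accessory subunit of complex I, with 0% covered in both libraries and an H3K27ac summit nearby at ranks 1594 and 1416. The medians for canonical genes of complex IV, 82.2% and 86.3%, were above those of complex I (58.0% and 59.2%), complex III (53.4% and 59.6%) and complex V (58.4% and 50.7%), but each complex had genes both below 30% and at 100% in replicate 1.

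**Figure D1:**
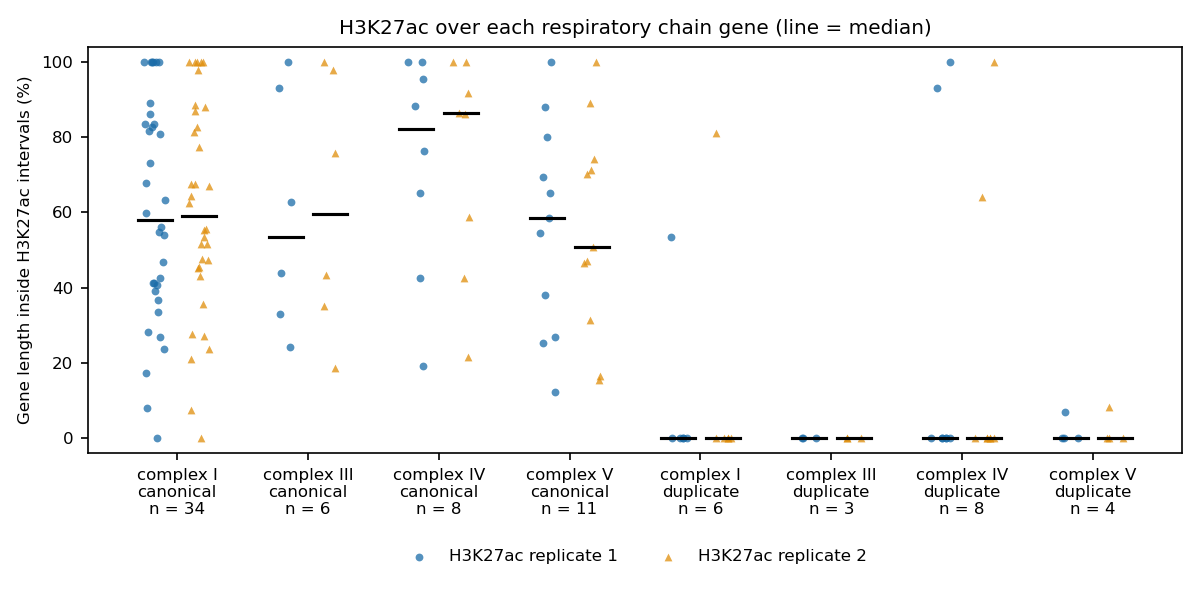
Percentage of each gene's length inside H3K27ac intervals, by complex and class, with 1 circle (replicate 1) or triangle (replicate 2) per gene and a line at the median. The canonical medians lie between 50.7% and 86.3%, and the medians of all 4 duplicate classes lie at 0.

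The strongest H3K27ac interval near a member was one of the strongest anywhere. ND-PDSW, an accessory subunit of complex I, had ranks 3 and 2 in the H3K27ac libraries, with intervals at 2L:3464088-3467384 and 2L:3463758-3467309 that covered 100% and 97.9% of the gene. Their summits lay 655 and 672 bp from ND-PDSW, inside its neighbour msl-2, so the peak of the mark was not over ND-PDSW itself. ND-19, another accessory subunit of complex I, had ranks 103 and 123 with the summit inside the gene and 100% of it covered. COX7C, a small subunit of complex IV, had ranks 401 and 343, with the summit inside both COX7C and its neighbour oys. Among genes chosen after their values were seen, COX4, another subunit of complex IV, had ranks 349 and 417, with summits inside the gene and 65.1% and 86.3% of it covered. At the other end, and chosen in the same way, ATPsynbeta, the catalytic subunit of the ATP synthase, had ranks 6971 and 6637 with folds of 2.84 and 2.83. Over the canonical genes with a summit, the best interval lay at a median percentile of 87.4 and 88.5 in the 2 lists, against 81.3 and 80.2 for all genes with one. ND-B16.6, an accessory subunit of complex I, had very unequal ranks of 11119 and 2252, from different intervals, with the summit inside the gene in replicate 1 and 389 bp outside it in replicate 2.

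The 6 marked duplicates differed in where the mark lay. COX4L, a copy of COX4, had ranks 1485 and 2246, with both summits inside the gene and 100% of it covered, and no other gene within 1 kb. It was the only duplicate whose best interval had its summit inside the gene in both libraries. COX7AL, a copy of COX7A, had ranks 1634 and 1912 with 93.0% and 64.0% of the gene covered. COX7AL2 had ranks 2459 and 2277 with 0% of the gene covered and the summits inside CG10874. COX7CL, which neighbours COX7C, had ranks 4257 and 3859 with 0% covered, and the summits lay 995 and 739 bp off, in sel and in COX7C. ATPsynbetaL had ranks 5771 and 5898 with 6.78% and 8.20% covered and both summits in IleRS-m. ND-51L1, which overlaps Smurf, had ranks 12810 and 8546, at percentiles of 13 and 38.7 in the lists. With the summit required inside the gene in each library, 50 canonical genes and 2 duplicates, COX4L and ATPsynbetaL (through an interval weaker than its best), were left.

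H3K4me1 was far less common at these genes. It lay within 1 kb of 13 of 80 genes in both libraries (16.2%), against 18.4% of all genes and 10.4% of those of at most 2 kb, so the share was near that of all genes. The libraries differed in this. Replicate 1 had it at 43 genes (53.8%), against 38.5% of all genes and 27.5% of those of at most 2 kb. Replicate 2, whose list was the shorter, had it at 17 (21.2%), against 21.2% and 13.1%. The count without replicate 2 is 43. Of the 13, 12 were canonical and 1, COX7AL2, was a duplicate. All 13 also had H3K27ac, as did 2193 of all 2563 genes with H3K4me1. By the summit rule, none of the 17 members without H3K27ac had H3K4me1 in both libraries, against 5.93% of all genes without H3K27ac. Of these 17, ND-B14, ND-B17.2 and COX5BL had an H3K4me1 summit in 1 library. By coverage, ND-B17.2 had 99.2% of its length inside H3K4me1 intervals in replicate 1 and 58.2% in replicate 2. ND-B14 and ND-B17.2 also lay entirely inside H3K27ac intervals, as given above. Among genes with H3K27ac, 20.6% of members and 28.5% of all genes carried both marks.

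A few members nevertheless held some of the strongest H3K4me1 intervals of the embryo. ATPsynC encodes the c subunit, which forms the rotating ring of the ATP synthase, and had ranks 17 and 15. Its intervals, 3R:31219567-31219875 and 3R:31219548-31219879, had summits 100 and 96 bp outside the gene. UQCR-Q, a small subunit of complex III, had ranks 15 and 38, with summits inside the gene. ND-B8 had ranks 43 and 58, with summits 101 and 94 bp outside it and closer to Secp43. ATPsynD, a peripheral stalk subunit of the ATP synthase, had ranks 172 and 179. The folds at ATPsynC were 9.65 in replicate 1 and 23.1 in replicate 2.

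Over all deposited intervals, each of the 6 factors was at more than 50% of the 80 genes, and of all genes. All libraries of the group had a summit at 74 genes for Bcd (92.5%), against 81.2% of all genes and 68.0% of those of at most 2 kb. For Cad the count was 70 (87.5%), against 76.5% and 62.3%. Dl was at 63 genes (78.8%), against 73.4% and 55.8%, and Twi at 71 (88.8%), against 80.0% and 66.5%. Zld was at 74 genes (92.5%), against 81.0% and 67.8%. GAF was at 44 genes (55.0%), against 61.0% and 39.4%. For every factor the members' share thus lay above that of short genes, and for all but GAF also above that of all genes.

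The classes differed here as well. Canonical genes bound numbered 57 for Bcd, 55 for Cad, 52 for Dl, 56 for Twi, 36 for GAF and 57 for Zld, of 59. Duplicates bound numbered 17, 15, 11, 15, 8 and 17 of 21 in the same order. Duplicates are shorter, with a median length of 703 bp against 1178 bp for canonical genes. Their shares lay near those of genes of at most 2 kb for GAF (38.1% against 39.4%) and Dl (52.4% against 55.8%). In single libraries these lay on either side. For GAF they were 42.9%, 57.1% and 52.4%, against 48.7%, 54.7% and 49.2%. For Dl they were 76.2%, 61.9% and 90.5%, against 77.3%, 70.1% and 80.9%. Counted in all libraries, the shares of duplicates lay above those of short genes for Bcd (81.0% against 68.0%), Zld (81.0% against 67.8%), Cad (71.4% against 62.3%) and Twi (71.4% against 66.5%). When the summit had to lie inside the gene, the counts of members fell to 36 for Bcd, 34 for Cad, 35 for Dl, 36 for Twi, 17 for GAF and 32 for Zld. That rule drops the 1 kb on either side of these short genes, and no share over all genes is given for it.

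The 15 duplicates with no H3K27ac summit in either library were ND-20L, ND-24L, ND-49L, ND-51L2 and ND-B14.5AL in complex I, UQCR-11L, UQCR-14L and UQCR-6.4L in complex III, COX5BL, COX6AL, COX6AL2 and COX6CL in complex IV, and ATPsynCF6L, ATPsynGL and ATPsynepsilonL in complex V. ND-20L was the only one with a factor strong in all its libraries. Zld was nevertheless present in all 3 libraries at 17 of 21 duplicates, at weak ranks, with medians of 16283.5, 17038 and 15289.5 over those with an interval, against 4531, 4641 and 5597.5 for canonical genes. UQCR-14L, named after its values were seen, had Zld ranks of 39500, 37778 and 25022, with all summits in Mst98Cb, and UQCR-14, the subunit it is named after, had 6091, 6183 and 7164, with all summits in CG32576. COX5BL and COX6AL had no Zld interval in any library.

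**Figure D2:**
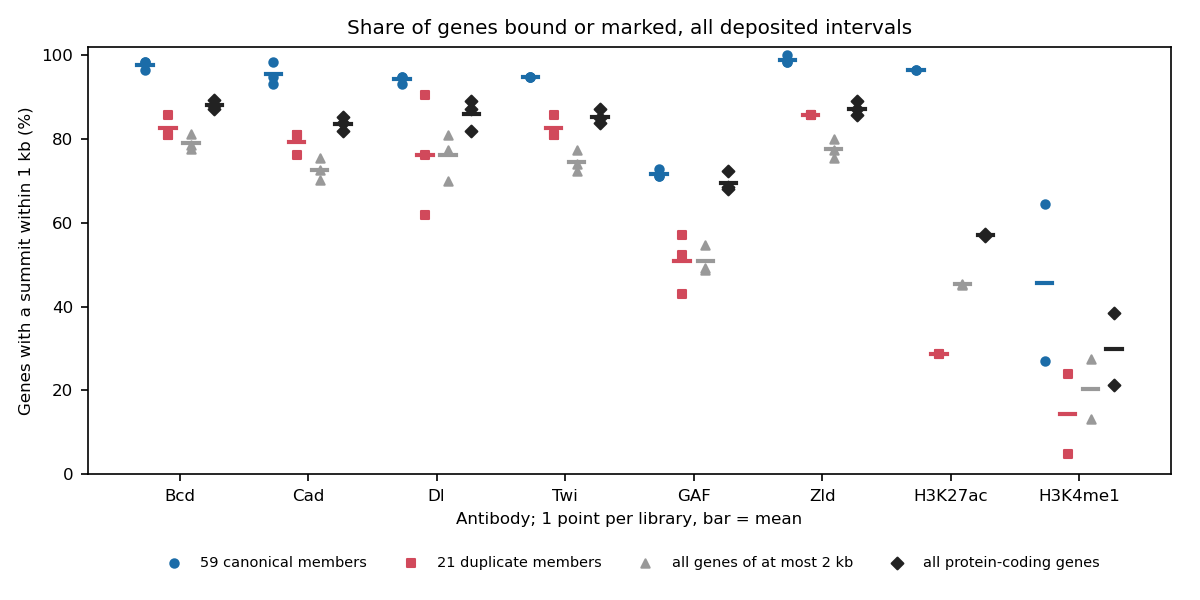
Percentage of genes with a summit within 1 kb over all deposited intervals, with 1 point per library and a bar at the mean, for canonical and duplicate members, genes of at most 2 kb and all genes. For H3K27ac both libraries put canonical genes at 96.6% and duplicates at 28.6%, and for H3K4me1 the libraries of each class lie far apart.

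The canonical genes without a factor in every library were few, except for GAF. The 7 without Dl in every library were all of complex I, namely ND-13A, ND-24, ND-30, ND-42, ND-75, ND-B16.6 and ND-B22, of which ND-24, ND-30 and ND-75 are core subunits. Twi had no interval in any library at ND-B16.6, ATPsynO and ATPsyndelta. ATPsynO joins the catalytic head of the synthase to its stalk and ATPsyndelta lies in the central stalk, and both had strong Zld in all 3 libraries. Bcd had no interval in any library at ND-B17.2 among canonical genes. GAF was not in every library at 23 of 59 canonical genes, while 61.0% of all genes had it in every library. It had no interval in any library at 12 canonical genes, 8 of them in complex I, which holds 34 of the 59. For this count and those for Twi and Bcd no share over all genes is given. Per library GAF was at 71.2%, 72.9% and 71.2% of canonical genes, against 68.0%, 72.4% and 68.5% of all genes. No member lacked an interval in all 22 lists. COX5BL had intervals in 6 lists, the fewest, and its Bcd and H3K4me1 intervals were the same ones as those of COX5B, which it adjoins. An interval in all 22 lists was found at 10 members, 9 canonical genes (ND-15, ND-19, ND-MNLL, ND-PDSW, UQCR-Q, COX4, COX5A, ATPsynC and ATPsynD) and the duplicate COX7AL2. No share over all genes is given for this count, which requires H3K4me1 in both libraries, found at 18.4% of all genes.

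**Figure D3:**
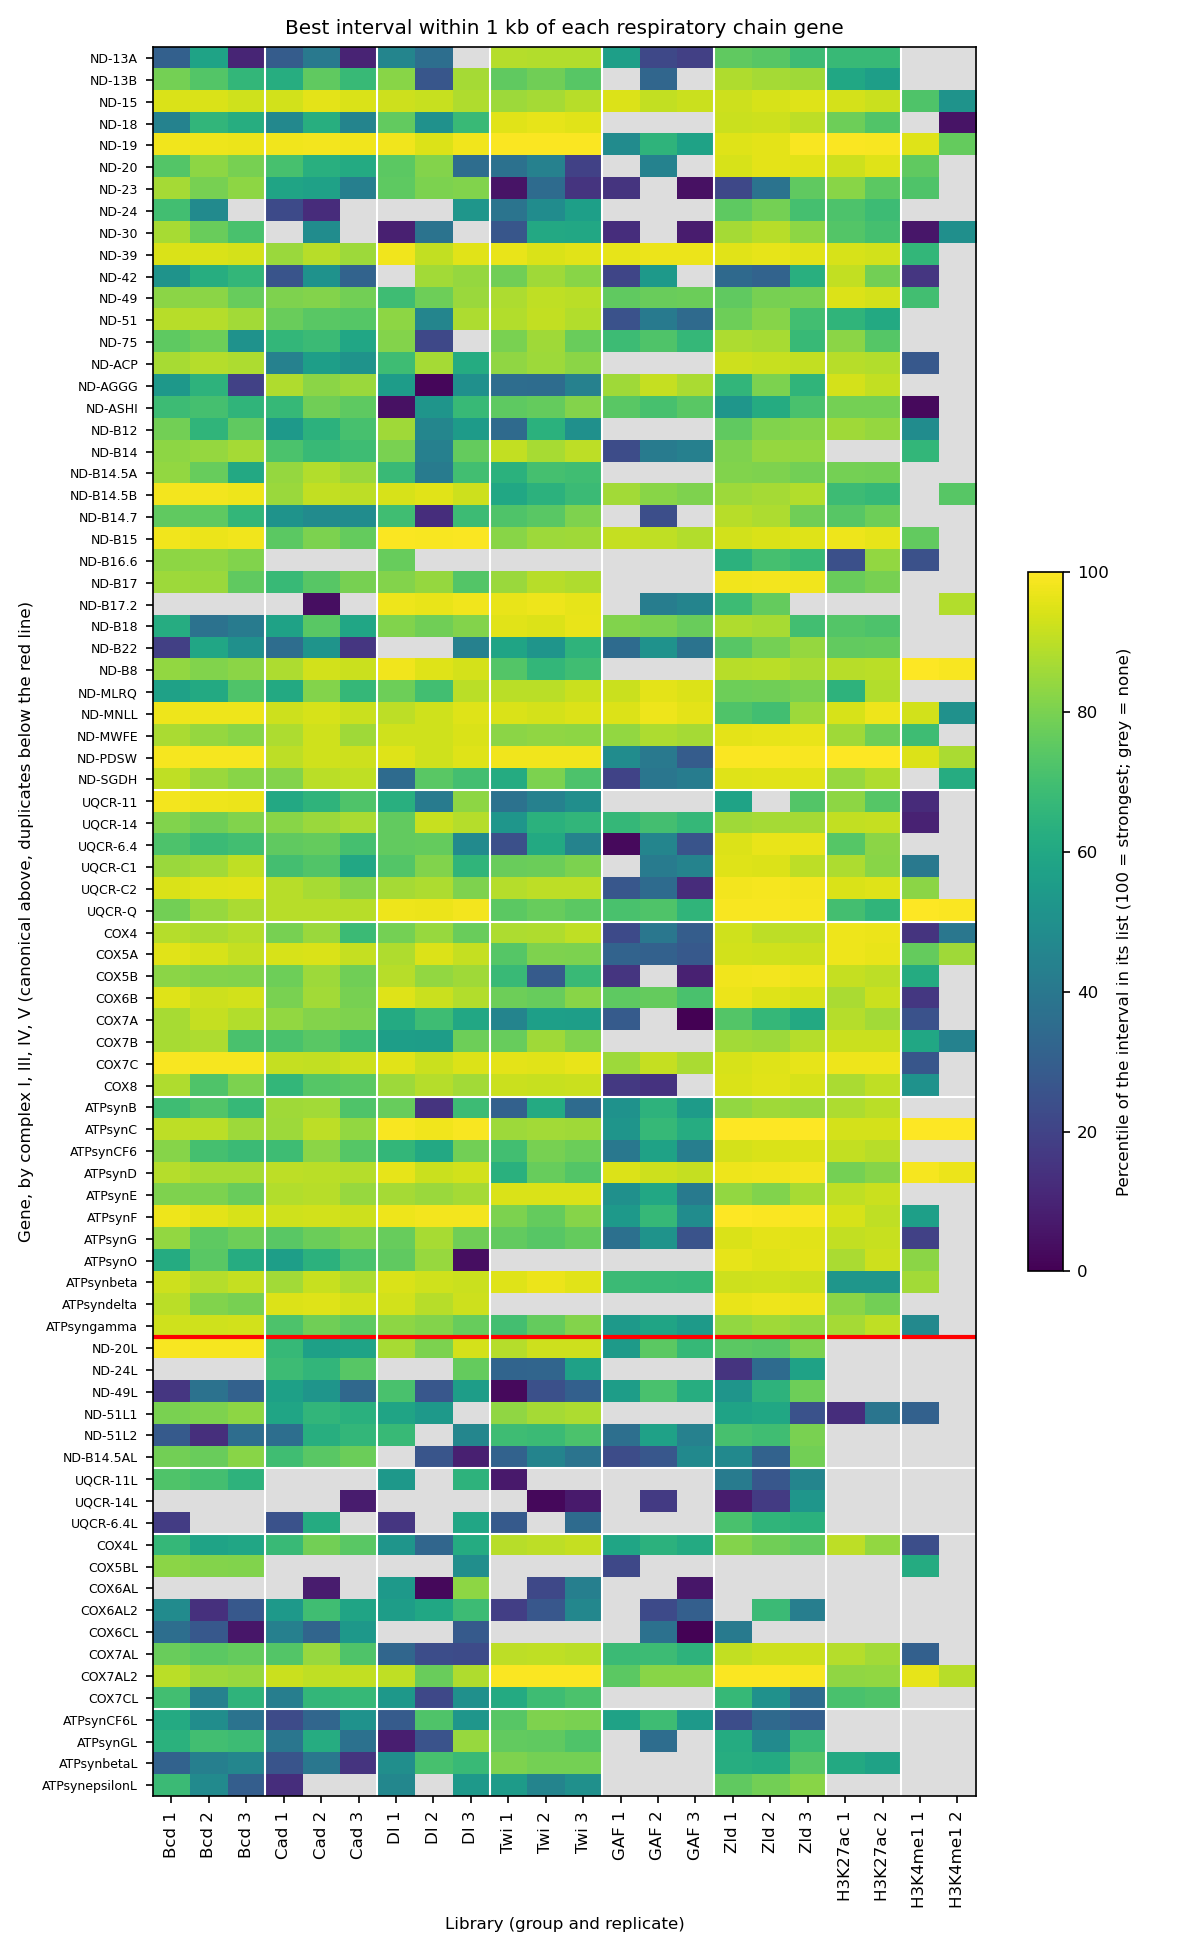
Percentile of the best interval within 1 kb of each of the 80 genes (rows, by complex, with duplicates below the red line) in each of the 22 libraries (columns), with grey where a library had none. The H3K27ac columns are filled for 57 of the 59 canonical genes and grey for 15 of the 21 duplicates.

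Among strong intervals the factors parted. Zld was strong in all 3 libraries at 28 of 80 genes (35.0%), against 30.0% of all genes and 19.7% of those of at most 2 kb. Canonical genes made up 26 of the 28 (26 of 59, 44.1%). Per library, canonical genes with strong Zld numbered 31, 31 and 26. Bcd was strong at 15 genes (18.8%), against 23.8% of all genes and 13.9% of short genes, and Cad at 9 (11.2%), against 23.1% and 12.7%. Dl was strong at 16, against 20.8% and 11.6%, and Twi at 15 (18.8%), against 22.8% and 11.9%. GAF was strong at 9 (11.2%), against 19.6% and 6.50%. Zld was thus the only factor whose share among the members lay above that of all genes. Cad alone lay below short genes by this count, but not in single libraries. There strong Cad was at 17.5% of members in each library, against 15.7%, 15.7% and 14.9% of short genes. No test of the list was made.

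Within complexes, strong Zld was at 8 of 11 canonical genes of complex V, 5 of 8 of complex IV, 3 of 6 of complex III and 10 of 34 of complex I. Of the 7 core subunits of complex I, 1 (ND-20) had strong Zld in all 3 libraries, against 30.0% of all genes. None had a strong interval of any other factor in all its libraries. This rests on the cutoff, since the mean Twi ranks of ND-51 and ND-49 were 5040 and 5028, just past 5000. With 7 genes these counts are too small to set the core subunits apart. Of the other 27 canonical genes of complex I, 9 had strong Zld, 9 strong Dl, 8 strong Twi, 7 strong Bcd, 7 strong GAF and 4 strong Cad. Dl was strong at 5 of 11 canonical genes of complex V and at 1 of 8 of complex IV. Twi and GAF were strong at 0 of 6 canonical genes of complex III. Among duplicates, the strong counts of 21 were 1 for Bcd (ND-20L), 1 for Cad (COX7AL2), 0 for Dl, 3 for Twi (ND-20L, COX4L and COX7AL2), 0 for GAF and 2 for Zld (COX7AL and COX7AL2).

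**Figure D4:**
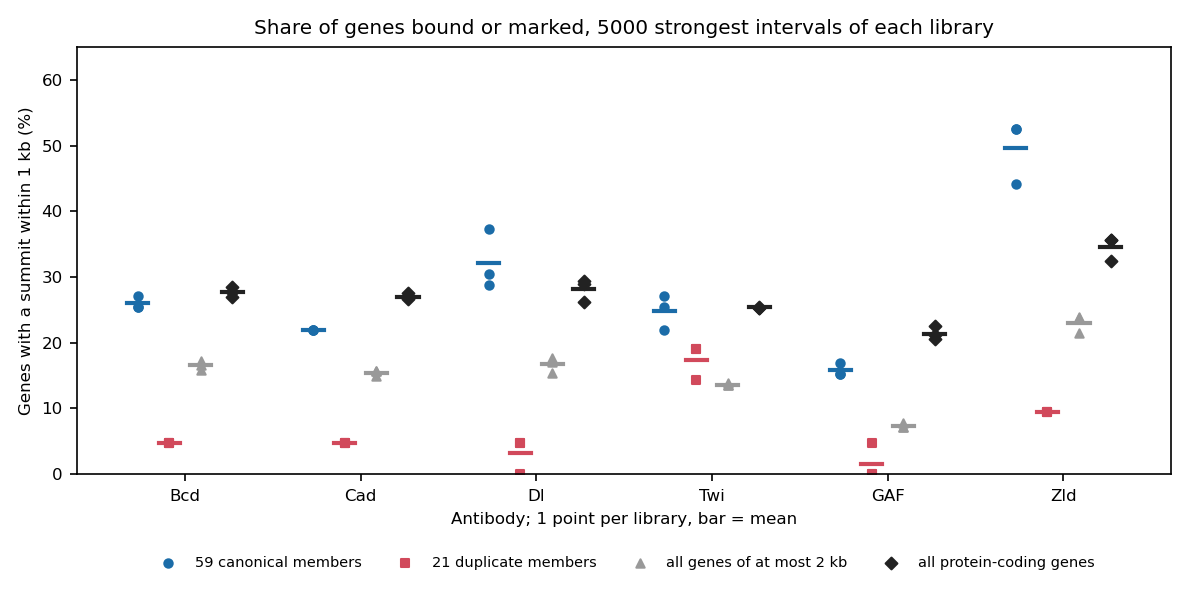
Percentage of genes with a summit within 1 kb among the 5000 strongest intervals of each ChIP-nexus library, with 1 point per library and a bar at the mean. For Zld the canonical genes lie at 44.1% to 52.5%, duplicates at 9.52% and all genes at 32.5% to 35.7%.

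ATPsynC had the strongest Zld interval of the set. Its ranks were 33, 38 and 100, with folds of 17, 17.6 and 14 and summits 77 to 92 bp outside one end of the gene, as at 3R:31219453-31219925 in replicate 1. The Dl interval there had ranks 491, 897 and 570 and overlapped it. ATPsynF, a subunit of the membrane part of the synthase, had Zld ranks 142, 206 and 593 and Dl ranks 1297, 722 and 874, with all 6 summits 36 to 52 bp outside the gene. In both genes Zld and Dl were thus strong at the same gene end in all libraries, while Twi, which also acts in the dorsoventral system, had ranks of 6428 to 7250 at ATPsynC and 8660 to 10822 at ATPsynF. ATPsynD had Zld ranks 1035, 918 and 977, ATPsyndelta 1402, 1135 and 1519, and ATPsynO 1676, 2289 and 2150. The ATPsyndelta summits lay 570 to 574 bp away, next to Ypel.

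In complex III, UQCR-Q had Zld ranks 376, 350 and 635 with summits inside the gene, and Dl ranks 1241, 1166 and 950. UQCR-C2, a core protein of the complex, had Zld ranks 820, 682 and 964, and UQCR-6.4, a small subunit, 2316, 1559 and 1756. UQCR-11 was unlike these. A Zld interval with ranks 1, 1 and 3 has no nearer protein-coding gene, but its summit lay 8.57 to 8.58 kb from UQCR-11, outside the window. Within 1 kb it had weak Zld intervals in 2 libraries, at ranks 18004 and 14058, and strong Bcd at ranks 943, 1233 and 1383, with summits 940 to 951 bp off, just inside the window. In complex IV, COX5B had Zld ranks 841, 764 and 1377, COX6B 1337, 2302 and 3110, COX8 2408, 1966 and 3145, and COX7C 2546, 2313 and 1987. The summits near COX5B and COX8 lay nearer to IFT52 and VhaM9.7-b. In complex I, ND-PDSW led with Zld ranks 319, 285 and 473, followed by ND-B17 with 854, 829 and 1046, ND-19 with 2091, 1898 and 534, ND-MWFE with 1814, 1644 and 1816 and ND-39 with 1892, 1650 and 2295, all of them accessory subunits.

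Strong Zld summits at canonical genes mostly lay within 500 bp of a gene end. No share over all genes is given here, and in such short genes much of the window lies that close to an end. In the 3 libraries, 28 of 31, 26 of 31 and 23 of 26 lay within 500 bp of an end, at a median distance of 86, 95 and 116 bp. For GAF these were 5 of 10, 4 of 9 and 4 of 9, at medians of 589, 672 and 680 bp. The genes with strong GAF included the long ND-15, ND-MLRQ and ND-39, of 41305, 6611 and 5003 bp. Which end is the start of transcription cannot be given, since the gene table used holds no strand. A neighbour lay nearer to the strong Zld summit at 11, 14 and 11 of the canonical genes.

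Some members led for several factors. By mean rank, ATPsynC and ATPsynF were among the 3 leading members for both Zld and Dl, COX7AL2 for both Zld and Twi, ND-PDSW for both Bcd and Twi, and ND-19 for both Cad and Twi. For Bcd, COX7C had ranks 618, 612 and 640, ND-PDSW 667, 615 and 593, and ND-20L 595, 734 and 683. The Bcd summits at COX7C and ND-PDSW lay inside the neighbours oys and msl-2. ND-20L is a copy of ND-20, which carries an iron-sulfur cluster of complex I, and is set apart from other genes, with none within 1 kb. It had no H3K27ac or H3K4me1 interval in any library, and its Bcd interval, 3R:29516387-29517341 in replicate 1, lay 446 bp off. ND-20 itself had Bcd ranks of 14584, 8411 and 9585 and strong Zld at ranks 2571, 1848 and 2419, where ND-20L had Zld ranks of 10739, 11833 and 10472. For Cad the leading members were ND-19 with ranks 939, 881 and 930, ND-15 with 2817, 1949 and 2490, and ATPsyndelta with 2266, 2306 and 3136.

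For Dl, ND-B15, an accessory subunit of complex I, led with ranks 323, 376 and 261, with summits 581 to 591 bp off inside CG10151, ahead of ATPsynC and ATPsynF. For Twi, COX7AL2 led with ranks 260, 256 and 242 and folds of 28.0, 24.7 and 27.3, at 2L:2196669-2197417 in replicate 1, inside the gene. Its strong Zld, at ranks 277, 241 and 454, was a different interval beyond the gene, 74 to 97 bp from it and nearer to CG10874. ND-19 followed for Twi with ranks 304, 303 and 279, and ND-PDSW with 947, 1073 and 1088 and summits inside the gene. For GAF, ND-39 had ranks 1029, 867 and 767 with folds of 38.2, 38.5 and 38.1, 1857 to 1876 bp from the nearer end of the gene, where ZnT77C overlaps it. ND-MNLL had GAF ranks 1416, 813 and 1147 with summits 904 to 910 bp off and nearer to Nek2, and ND-MLRQ 2188, 1307 and 1377 with summits 1745 bp from the nearer end. ND-MNLL and ND-MLRQ are accessory subunits, so the 3 members with the best mean GAF ranks were all of complex I.

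Many members had no strong factor. None of the 6 was strong in all its libraries at 39 genes (48.8%), against 46.2% of all genes and 63.5% of those of at most 2 kb. These were 22 canonical genes and 17 duplicates. Of the 22 canonical genes, 21 carried H3K27ac, against 28.6% of all genes without a strong factor, and of the 17 duplicates 3 did. At the other end, 14 members had 3 or more strong factors (17.5%), against 22.5% of all genes and 10.2% of short genes. COX7C had all 6, and ND-19, ND-39, ND-MNLL and ND-PDSW had 5 each. ND-19 and ND-PDSW lacked strong GAF, ND-39 strong Cad and ND-MNLL strong Zld.

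All 28 members with strong Zld carried H3K27ac, against 3755 of all 4172 genes with strong Zld. Among the 52 without it, 35 did (67.3%), against 40.3% of all genes without strong Zld. In canonical genes the mark was at 26 of 26 with strong Zld and at 31 of 33 without it. In duplicates it was at 2 of 2 with strong Zld and at 4 of 19 without it. Strong Cad went with H3K4me1 in 6 of 9 members, and H3K4me1 was at 7 of the 71 without strong Cad, against 43.9% and 10.7% of all genes with and without it. Cad is named as the highest of the 6 factors among members. For strong Dl the share was 43.8%, for Bcd and GAF 33.3%, for Zld 28.6% and for Twi 26.7%. Over all genes Dl was the highest, at 52.3%.

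Whether a gene had strong binding of one factor more or less often than of the other 5 was tested for each gene, 3 libraries against 15, with an exact two-sided permutation test and Benjamini-Hochberg adjustment over all genes and factors (83532 tests). No gene passed at an adjusted p of 0.05, and so no member did. The smallest p the design allows is 0.0012, and its adjusted value was 0.053. At an unadjusted p under 0.05, 43 of 480 member tests passed (8.96%), against 8.58% of all tests, so the share was near the background. With the replicate number as a block the shares were 6.46% and 6.98%. Zld was the more frequent factor at 12 members (15.0%), against 9.43% of all genes, Twi at 8 against 5.72%, and Bcd at 3 (3.75%) against 5.99%. Dl was at 3 (3.75%) against 2.74%, GAF at 2 against 6.27%, and Cad at 0, against 5.0% of all genes. In the other direction, Twi was the less frequent factor at 5 members, against 3.53% of all genes, and GAF at 5, against 6.98%. Bcd was at 2, against 2.13%, Cad at 2, against 2.1%, Zld at 1, against 0.941%, and Dl at 0, against 0.625%. The test treated the 18 libraries as exchangeable, although the other 15 were 5 factors with 3 libraries each. Its p-values thus measure how well libraries repeat, not a spread between factors. Libraries of a factor may also share embryos, since the labels do not say otherwise, and the p-values then measure only the spread between libraries.

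The smallest p was reached by 15 of 480 member tests and by 1928 of all 83532 tests, and none of them passed the adjustment. Strong summits in all 3 Zld libraries and in 0 of the other 15 were found at ND-20, ND-ACP, UQCR-6.4, COX5B, ATPsynG, ATPsynO and ATPsynCF6. ND-ACP is the mitochondrial acyl carrier protein, and ATPsynG and ATPsynCF6 are subunits of the membrane part and the stalk of the synthase. The same contrast held for Twi at ND-B18 and COX4L and for Bcd at UQCR-11 and ATPsyngamma, the rotating central shaft. The opposite one, 0 of 3 libraries against 15 of 15, held at ND-MNLL for Zld, ND-39 for Cad, and ND-19 and ND-PDSW for GAF. With summits counted within 2 kb in place of 1 kb, 17 of 480 member tests (3.54%) and 2.51% of all tests passed, with a smallest adjusted exact p of 0.049 (permutation test).

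Other genes of respiration were counted in the same way. Of the 7 subunits with other symbols, 6 had H3K27ac and 5 strong Zld. These are levy, cype, ox, RFeSP, Cyt-c1, blw and sun, and blw, the alpha subunit of the ATP synthase, was the one with no H3K27ac summit within 1 kb, although all 7 genes had some base covered in both libraries. Complex II, which feeds electrons from succinate, had H3K27ac at 3 of 4 genes and strong Zld at 2 of 4, and SdhB had the mark in 1 library. Both cytochrome c genes, the electron carrier's, had an H3K27ac summit within 1 kb, although Cyt-c-d had no base covered in either library, and both had strong Cad but not strong Zld in all libraries. Of 11 genes of the tricarboxylic acid cycle, 7 had H3K27ac and 4 strong Zld.

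Beyond the pathway, mitochondrial ribosomal protein genes had H3K27ac at 69 of 73 and strong Zld at 29 of 73 (39.7%). Cytoplasmic ribosomal protein genes had them at 86 of 92 and 57 of 92 (62.0%), and H3K4me1 at 39 of 92 (42.4%), against 12 of 59 (20.3%) of canonical members. Cuticle protein genes, which serve later in development, had H3K27ac at 3 of 71 and strong Zld at 5 of 71. The canonical share with H3K27ac, 96.6%, was thus close to the 94.5% and 93.5% of the ribosomal lists, and none of these lists was tested against another.

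**Figure D5:**
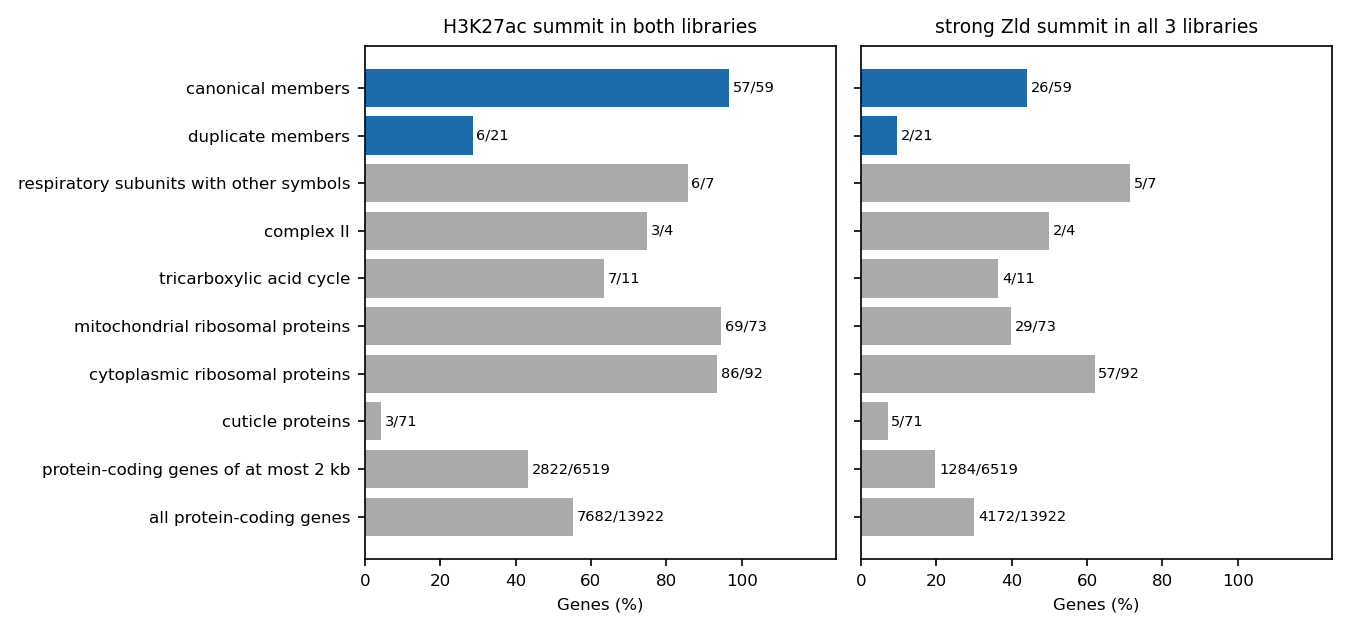
Percentage of genes with an H3K27ac summit in both libraries (left) and with a strong Zld summit in all 3 libraries (right), with the counts beside the bars, for canonical and duplicate members (blue) and other gene lists (grey). The canonical bar for H3K27ac (57 of 59) lies near those of the ribosomal protein lists, and the bar of the duplicates (6 of 21) lies below that of all genes.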

How the data were processed

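The analysis started from the peak lists the authors deposited, 1 per library for 22 of 23 samples. Cutadapt 2.5, Bowtie2 2.3.5.1, MACS2 2.2.7.1 and the build dm6 are named, with no role or order, in the submitters' processing notes. The calling threshold is not given in the sources used here. The deposited columns hold a whole-number score (not used further), a fold enrichment, which is a linear ratio, −log10 of the p-value and q-value, and a summit position. Groups came from the sample titles, and the GAF and Zld lists carry numbers other than their titles'. Genes came from a RefSeq table of Release 6, the same build as dm6, without strand. Counts used summits within 1 kb of the gene on 6 arms, and the 5000 strongest intervals by −log10 p (ties by fold). No 2 lists were identical. The exact per-gene permutation test was checked on simulated data. Python 3.11.15, numpy 2.4.6, pandas 2.3.3 and scipy 1.17.1 were used.

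The members and lists were chosen with earlier results of these data known. The genes named are, for each group, the 3 members with the best mean rank, up to 5 per complex with H3K27ac and strong Zld (by Zld rank), members called in the test or with no interval, and the marked duplicates; others were named after their values were seen. Alternatives were the window, the libraries required, the q-value, the number of strong intervals and each library left out.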

Additional observations from a re-analysis of the deposited data

How the results depend on the processing

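Of the alternatives to the counts of members, 140 stayed within 1.5 times the value reported and 25 did not. An H3K27ac count was among the 25 only for duplicates. Alternatives chosen after the data were seen were the summit inside the gene, which gave 32 genes for Zld, 17 for GAF, 36 for Bcd, 34 for Cad, 35 for Dl, 36 for Twi, 7 for H3K4me1 and 2 duplicates for H3K27ac, the counts without ND-15, and the test over genes with a strong summit in at least 1 library. At a −log10 q of at least 10, Dl was at 30 genes and H3K4me1 at 6. H3K4me1 was at 47 genes when 1 library sufficed, and at 17 to 43 with a library left out. Over the 2000 strongest intervals strong Zld was at 11 genes, GAF at 2, Bcd at 8, Cad at 1, Dl at 5 and Twi at 5. Over the 10000 strongest GAF was at 19 genes, Bcd at 32, Cad at 27 and Twi at 30. Strong Twi within 500 bp was at 9 genes. These settings admit fewer or more intervals by construction, and other causes were not tested.

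The per-gene test called 17 members within 2 kb, against 0 as reported. Tests at the smallest p the design allows pass together or not at all, by their number over all genes. That number was 2099 of 83532 within 2 kb and 1928 as reported, so the change says nothing about the members. Over genes with a strong summit the test called 15, but 11 of these passed that filter only through the factor tested, so the 15 support nothing. It called 0 with 2000, 10000 or all intervals, within 500 bp, without any one replicate number, and with the replicate block, where 31 of 480 member tests (6.46%) had an unadjusted exact p under 0.05, against 6.98% of all tests. Libraries of the same number shared little deviation. Their mean correlation over 45 pairs was 0.00474, against -0.00239 over 90 pairs of different numbers, with 0 pairs over 0.1. Of 18 libraries, 9 correlated best with a library of their own number. The numbers were not taken to pair samples.

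Planned windows at the transcription start and promoter motifs were not run, since the table used has no strand and no sequence. Read depth is unknown, so a missing interval is not evidence of no binding. In whole embryos a mark in few nuclei cannot be told apart from a weak mark in many.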
